A study of Mus musculus with 2 samples.

Results

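The crypt niche genes described here encode Wnt ligands and their Frizzled receptors, the R-spondins with the receptors and ubiquitin ligases that read them, the secreted antagonists of the SFRP and DKK families, and the BMP ligands with their receptors and antagonists. They were defined by gene symbol, with no value in the rule, although earlier results of these data were known when the set was drawn up. Every gene whose symbol is Wnt, Fzd, Sfrp, Rspo, Dkk or Bmp with a number and at most 1 letter was taken, together with Bmpr1a, Bmpr1b, Bmpr2, Lgr4, Lgr5, Lgr6, Lrp5, Lrp6, Axin2, Ascl2, Grem1, Nog, Rnf43 and Znrf3. This gave 66 genes on 132 probe sets, of the 18193 genes that the array could be read for. Of these symbols, Bmp1 is a procollagen protease and Bmp2k is a kinase, so both were kept apart from the BMP ligands.

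The study compared WT C57BL/6 mice with mice of the same background in which the LRR receptor gene Lrrc19 had been knocked out. For each genotype, total RNA of 5 mice (2 males and 3 females, 6 weeks old, kept free of specific pathogens) was pooled in equal parts and hybridized to 1 Affymetrix mouse array. The RNA came from intestinal cells shaken off in EDTA, from which CD4 and CD8 cells, B cells, DCs, and macrophages had been removed with magnetic beads. The labels call the product gut epithelial cells and do not say which part of the intestine was used. Variation from mouse to mouse cannot be estimated from 1 pool per genotype, so no difference has a replicate check or a test, and having 2 arrays limits the precision.

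The values are intensities in arbitrary units on a linear scale. Where a gene had several probe sets, the brightest on average was used, and its difference is log2 of the Lrrc19 KO value minus log2 of the WT value. The median of all probe sets, an intensity of 127, served as a floor, and a gene was described further if at least 1 pool reached it. A gene was called higher or lower only where the pools differed at least 2-fold. For all other genes the values are given without such a call. As a limited measure of technical error, the probe sets of the same gene were compared. All are read from the same 2 arrays, so errors between arrays, labelings or pools are not in this measure. Over 5007 genes with several probe sets at or above the floor, the SD of their log2 differences had a median of 0.15.

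Both the target and the cell types were checked first. Lrrc19 was at 905 in the WT pool and 212 in the Lrrc19 KO pool on its brighter probe set (4.26-fold lower), and at 391 and 20.9 on the other. The sources used here do not say which part of the gene was deleted. The epithelial markers Epcam (12473 in WT and 12915 in KO) and Vil1 (5569 and 5762) were measured beside the smooth muscle transcript Myh11 (5685 and 8349), the fibroblast receptor Pdgfra (927 and 1071) and the pan-leukocyte marker Ptprc (982 and 953). All 15 smooth muscle markers and 21 of 24 markers of subepithelial fibroblasts and telocytes reached the floor. The pools therefore held stromal RNA besides epithelial RNA. In such mixtures, fewer cells of a type and less RNA per cell cannot be told apart. All 18 probe sets for hybridization spike-ins had higher values in KO, with a median log2 difference of 0.50. For Tfrc, a control transcript read at both ends, the 3' signal over the 5' signal was 4.14 in WT and 5.89 in KO. Of the remaining marker lists, medians were 0.21 for interstitial cells, neurons and glia, 0.02 for endothelium and 0.003 for leukocytes. They were -0.16 for Paneth cells, 0.05 for enterocytes and colonocytes, -0.05 for the small intestine and -0.10 for control genes. All of these medians were below 0 with the spike-ins as reference. They do not show single genes past 2-fold. In the Paneth cell list, Reg4 was called lower (1364 in WT and 292 in KO, log2 difference -2.22). In the small intestine list, Osr2 was called lower (472 and 215, -1.14). A dimmer Osr2 measurement (126 and 142, 0.17) reached the floor in KO only, so it had to lie above 0. In the list of enterocytes and colonocytes, Aqp8 was called higher (2019 and 4873, 1.27).

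As background, Wnt ligands keep the stem cells at the crypt base dividing. They bind a Frizzled receptor together with LRP5 or LRP6, which stabilizes β-catenin and switches on targets such as Axin2, Ascl2 and Lgr5. R-spondins act through LGR4, LGR5 and LGR6 by removing RNF43 and ZNRF3, the ubiquitin ligases that clear Frizzled receptors from the cell surface. BMP signaling runs the opposite way along the crypt, with most activity toward the lumen, where it promotes differentiation, and with antagonists such as Gremlin 1 and Noggin made beneath the crypt base. Much of this niche is made by fibroblasts and smooth muscle cells rather than by the epithelium itself.

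No gene of this set differed 2-fold between the pools. Of the 66 genes, 47 reached the floor in at least 1 pool, 42 of them in both, and 0 of 47 were called higher and 0 were called lower in the Lrrc19 KO pool. Among all 12518 genes at or above the floor, 0.567% were called higher and 0.431% were called lower. Calls were rare on the whole array, so a count of 0 among 47 genes is close to the background and does not set the crypt niche apart. None of the 73 probe sets of these genes that reached the floor passed 2-fold either. The differences went from -0.56 (Lgr5) to 0.65 (Bmp2).

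A smaller threshold of 1.5-fold was added after the values had been seen. By it, Bmp2 and Grem1 were past the threshold toward KO and no member was past it toward WT. This was 2 of 47 genes (4.26%), where 2.8% of all genes lay past it toward KO, and 0 of 47, where 3.42% of all genes lay past it toward WT. Neither count is read as a result about the set.

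**Figure D1:**
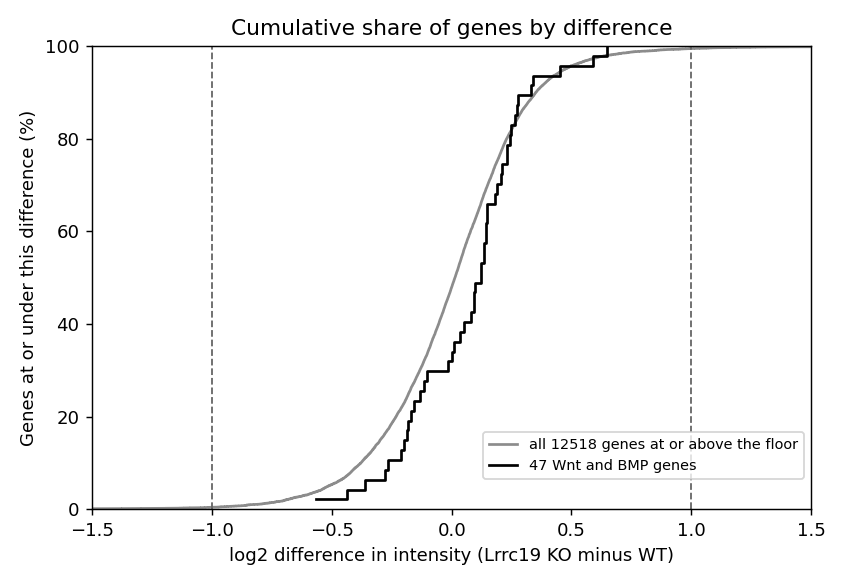
Cumulative share of genes (%) against their log2 difference (Lrrc19 KO minus WT) for the 47 crypt niche genes at or above the floor (black) and all 12518 genes at or above it (gray), with 1 array per genotype. Dashed lines mark 2-fold. The black curve starts at -0.56 and ends at 0.65, and lies right of the gray one around the middle, with medians of 0.12 and 0.01.

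Over the 47 genes the differences had a median of 0.12, compared with 0.01 over the 12518 genes. Differences above 0 were found in 32 of the 47 (68.1%) and in 52.1% of all genes. Over the 42 genes that reached the floor in both pools the median was 0.10, and over all 66 genes, the dim ones included, 44 lay above 0. The quartiles of the set lay at -0.12 and 0.22, and those of all genes at -0.18 and 0.19. An SD estimated from the median absolute deviation was 0.19 for the set and 0.27 for all genes. The spread between probe sets of a gene (median SD) was 0.15. In 20 of the 47 genes (42.6%, and 42.9% of all genes) the difference was no larger than that spread. The sign of the median also depends on the scaling of the arrays. It was 0.04 with both arrays set to the same median and 0.22 with the control genes as reference, and it was -0.38 when the spike-ins were taken as reference, where 2 of the 47 differences lay above 0.

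**Figure D2:**
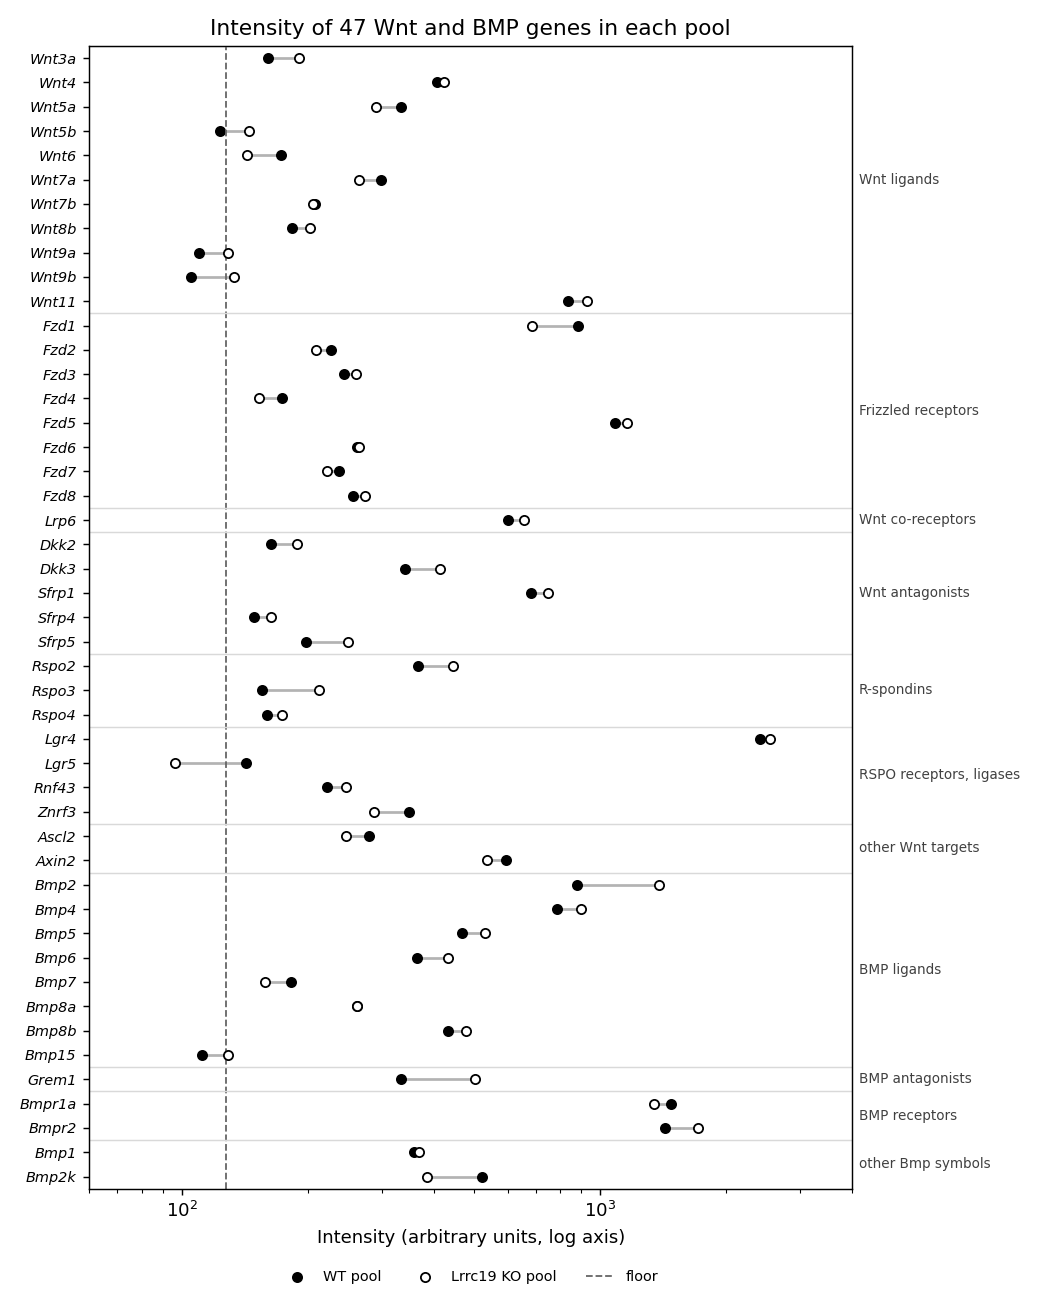
Intensity (arbitrary units, log axis) of the 47 genes at or above the floor grouped by role, with filled points for WT and open points for Lrrc19 KO. Each point is 1 array, so there are no errors to draw, and the floor (127) is dashed. In most rows the points nearly touch, and the widest gaps are those of Bmp2 (880.4 and 1379), Grem1 (334 and 501) and Lgr5 (142 and 96.2).

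Wnt ligands are the signals that start the pathway, and 11 of 19 reached the floor. Wnt11, which acts mostly without β-catenin, was at 838 in WT and 929 in KO. Wnt4 was at 407 and 422, and Wnt5a, a stromal ligand of the branch independent of β-catenin, at 334 and 290.3. These 3 genes were measured in both pools with differences from -0.20 to 0.15. The second probe set of Wnt4 (179 in WT and 139 in KO, log2 difference -0.36) ran against the first (0.05), so its direction is unsettled. That of Wnt5a did so too (0.10 against -0.20), but it was above the floor in KO only (120 and 128). It therefore had to lie above 0. The Wnt5a probe sets under the floor gave -0.08 and -0.26, so its direction rests on the probe set used. Wnt3a, a classical activator of β-catenin, was at 161 and 190.4, Wnt6 at 172 and 143, Wnt7a at 298 and 266, Wnt7b at 207 and 205, and Wnt8b at 183 and 202. Wnt5b (123 and 144, on a probe set that can match several genes), Wnt9a (109.8 and 129) and Wnt9b (105 and 133) were under the floor in WT and above it in KO. A gene that crosses the floor must differ in that direction, and with the WT value set to the floor their log2 differences were 0.18, 0.02 and 0.07. The median over the 11 genes was 0.15 (-0.35 with the spike-ins as reference), and 0.02 over the 8 ligands that reached the floor in both pools.

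Several ligands best known from the crypt were under the floor. Wnt3, made by Paneth cells, was at 14.0 in WT and 17.2 in KO on its 1 probe set. The Paneth cell marker Lyz1 was at 3769 and 3059 on its brightest probe set, which can match several genes. Its probe set without that limit was under the floor (62.8 and 49.9). Wnt2b, a stromal ligand that supports stem cells, was at 70.0 and 77.7. The other ligands under the floor were Wnt1, Wnt2, Wnt8a, Wnt10a, Wnt10b and Wnt16. A value under the floor is not evidence of a missing transcript, since probe sets differ in how well they bind.

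The Frizzled receptors lay on both sides of 0. Of 10, 8 reached the floor and their median log2 difference was -0.04 (0.05 with the control genes as reference), with 4 genes above 0 and 4 below. Fzd5, the main Wnt receptor of Paneth cells, read 1084 in WT and 1161 in KO. Both of its probe sets at or above the floor lay above 0 (0.10 and 0.20). The second (121 and 139.5) was above the floor in KO only, which fixed its direction. Fzd7, the receptor most used by intestinal stem cells, was at 238 and 222. The largest difference was that of Fzd1 (883 and 687, log2 difference -0.36), whose second probe set, under the floor, ran the other way (47.6 and 58.7). Fzd2 had probe sets on either side of 0, from -0.34 to 0.16, and so had Fzd3, from -0.11 to 0.09. Fzd4 lay below 0 on both probe sets (-0.19 and -0.09), and Fzd6 and Fzd8 were within 0.10 of 0. Fzd9 and Fzd10 were under the floor. Of the co-receptors, Lrp6 was at 602 and 656, with a second probe set at 253 and 287 (log2 differences 0.12 and 0.18), and Lrp5 did not reach the floor in either pool (95.7 and 92.5).

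**Figure D3:**
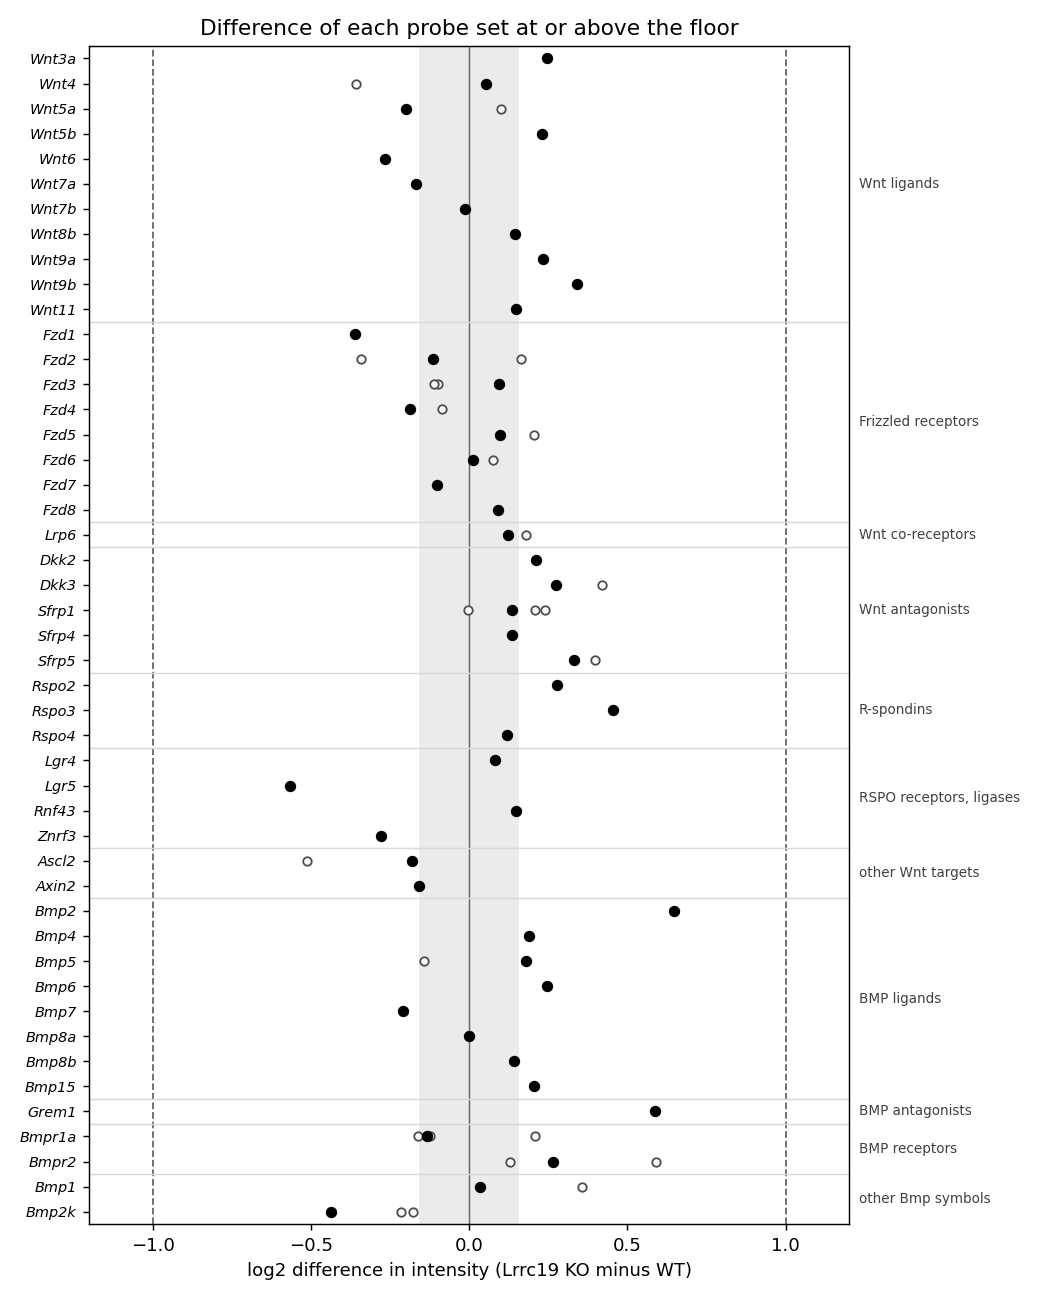
Log2 difference in intensity (Lrrc19 KO minus WT) of every probe set at or above the floor, by gene. Filled points are the probe sets that stand for the gene, open points the others, the gray band is the median SD between probe sets of a gene (0.15), and dashed lines mark 2-fold. No point reaches a dashed line, and 7 of 17 genes with several points have them on both sides of 0.

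Secreted antagonists keep Wnt ligands from their receptors, the SFRPs by binding the ligand and the DKKs by binding LRP5 and LRP6. All 5 that reached the floor had a difference above 0, with a median of 0.21 (-0.29 with the spike-ins as reference). Sfrp5 was at 198 in WT and 249 in KO (log2 difference 0.33). Its second probe set gave 0.40, but it was above the floor in KO only (126 and 166), which fixed its direction. Dkk3, a divergent member that hardly acts on Wnt, was at 342 and 413, and its second probe set at 235 and 315 (0.27 and 0.42). Sfrp1, made by smooth muscle and fibroblasts, was at 682 and 749, and its 4 probe sets at or above the floor gave differences from -0.003 to 0.24. The remaining ones were Dkk2 (163 and 188) and Sfrp4 (149 and 163). These differences were small, from 0.13 to 0.33. Sfrp2, Dkk1 and Dkk4 were under the floor.

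R-spondins amplify the response to Wnt ligands, and in the intestine they come from the stroma. The 3 that reached the floor had differences above 0 (median 0.28, and -0.22 with the spike-ins as reference). Rspo3, the main R-spondin of the crypt stroma, was at 155 in WT and 212 in KO (log2 difference 0.45), but its other probe set, under the floor, was at 95.0 and 97.1 (0.03). Rspo2 was at 366 and 444 (0.28), and Rspo4 at 160 and 173 (0.12). Rspo1 did not reach the floor in either pool (42.6 and 29.1). A difference at least as high as that of Rspo3 was found in 5.56% of the 12518 genes.

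The receptors of R-spondins and their ligases lay on both sides of 0. Lgr4, which is expressed through the whole crypt, was at 2407 in WT and 2546 in KO (log2 difference 0.08). Lgr5, the marker of the stem cells at the crypt base, was at 142 and 96.2, so that its KO value was under the floor. Its log2 difference was -0.56 as measured and -0.16 with the KO value set to the floor. A second probe set of Lgr5, just under the floor, was at 126.7 and 91.5 (-0.47). Lgr6 was under the floor. Rnf43 was at 223 and 247 (0.15), and Znrf3, the other ubiquitin ligase, at 349 and 287 (-0.28).

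The targets of β-catenin within this set mostly had differences below 0, none of them 2-fold. Of Axin2, Ascl2, Lgr5, Rnf43 and Znrf3, 4 had a log2 difference below 0, and the median of all 5 was -0.18. The 4 include Lgr5, which reached the floor in WT only and so had to lie below 0. Ascl2, the transcription factor of stem cell identity, was at 280 in WT and 247 in KO on the probe set used (-0.18). Its other probe sets gave 168 and 118 (-0.51) and, under the floor, 71.5 and 42.1 (-0.76). That at -0.51 reached the floor in WT only, so it had to lie below 0. Axin2, the feedback inhibitor that is induced by nearly every Wnt response, was at 596 and 535 (-0.16), about the size of the spread between probe sets. Its second probe set, under the floor, was at 35.5 and 45.5 (0.36). The median of these 5 genes was below 0, from -0.68 to -0.08, in the 7 alternative settings that measured all of them. With probe sets averaged Znrf3 dropped out and Axin2 was at 0.10, while a floor set at the 75th percentile left Axin2 alone. A share of 24.9% of all genes lay at least as far below 0 as Ascl2 did. Transcripts of dividing cells were measured beside them. Of 17 proliferation markers at or above the floor, 14 lay below 0 (median -0.38), and Ccnb2, a mitotic cyclin, was called lower (1305 and 640), while Mki67 was at 1252 and 1440. Their part in the values of the stem cell transcripts was not tested.

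The regions before the starts of Ascl2 and Axin2 are shown because both genes are β-catenin targets, and that of Grem1 because, of the BMP antagonists in the set, Grem1 and Nog, it alone reached the floor. The sequences are from RefSeq (GRCm38.p6), 250 bases that end just before the start of the gene, 5′ to 3′ on the strand of the gene. The array values themselves name no genome build. They lie at chr7:142969265-142969514 (minus strand) for Ascl2, chr11:108920099-108920348 (plus strand) for Axin2 and chr2:113758649-113758898 (minus strand) for Grem1. Capitals mark CTTTG in either orientation, the core bound by the TCF/LEF partners of β-catenin, and GGCGCC, an element bound by the SMADs of BMP signaling, which reads the same on both strands. The motifs do not overlap each other.
Ascl2: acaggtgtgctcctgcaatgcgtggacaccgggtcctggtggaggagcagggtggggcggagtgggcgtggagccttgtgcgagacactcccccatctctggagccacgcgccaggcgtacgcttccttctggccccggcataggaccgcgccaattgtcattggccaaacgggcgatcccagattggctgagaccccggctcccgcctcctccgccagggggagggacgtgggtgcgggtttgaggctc
Axin2: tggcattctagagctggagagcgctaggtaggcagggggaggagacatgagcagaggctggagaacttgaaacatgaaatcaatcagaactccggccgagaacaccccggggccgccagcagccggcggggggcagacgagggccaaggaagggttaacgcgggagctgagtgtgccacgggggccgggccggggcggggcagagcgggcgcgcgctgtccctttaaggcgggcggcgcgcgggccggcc
Grem1: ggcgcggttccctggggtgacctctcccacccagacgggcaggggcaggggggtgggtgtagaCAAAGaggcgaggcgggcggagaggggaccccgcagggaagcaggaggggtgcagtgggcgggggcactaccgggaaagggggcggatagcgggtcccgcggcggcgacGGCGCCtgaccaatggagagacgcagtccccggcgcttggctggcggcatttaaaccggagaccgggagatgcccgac

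Neither motif occurs in the windows of Ascl2 and Axin2, while that of Grem1 holds CAAAG starting 187 bases and GGCGCC starting 78 bases before the start. In windows of the same length, 48.6% of 32851 RefSeq promoters held the TCF/LEF core and 9.59% held GGCGCC. Of 50 promoters of the 44 crypt niche genes in that table, 18 held the former and 14 the latter. All 3 windows shown were rich in CpG, with 19 in Ascl2, 24 in Axin2 and 24 in Grem1 against a median of 6 over all promoters. A match is a stretch of letters and not a bound site, and sites may lie outside these windows.

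BMP ligands act on the upper crypt and the surface epithelium. Of 9, 8 reached the floor, and 7 of these had a difference above 0 (median 0.18, and -0.31 with the spike-ins as reference). The 7 include Bmp15, which was above the floor in KO only and so had to lie above 0. They also include Bmp8a, at 0.001, and Bmp5, whose probe sets lie on both sides of 0. Bmp2, which differentiated surface cells of the colon express strongly, was at 880.4 in WT and 1379 in KO. This was a 1.57-fold difference (log2 0.65), the largest of the set, read from its only probe set, and 254 of all 12518 genes (2.03%) had a difference at least as high. Bmp4, a ligand of the stroma beneath the epithelium, was at 788 and 899 (0.19). Bmp6 was at 365 and 433 (0.25) and Bmp8b at 432 and 477 (0.14). Bmp5, another stromal ligand, was at 467 and 529 on the probe set used (0.18) and at 308 and 279 on another (-0.14), which leaves its direction unsettled. Bmp7 was at 183 and 158 (-0.21), and Bmp8a was at 262 in both pools. Bmp15, known as a growth factor of the oocyte, crossed the floor at 112 and 129. A value near the floor is therefore not proof of transcription. Bmp10 was under the floor.

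The antagonist Grem1 had the second highest difference. Gremlin 1 is secreted by fibroblasts and smooth muscle cells at the crypt base, where it captures BMP ligands. Its only probe set was at 334 in WT and 501 in KO (log2 difference 0.59), and 343 of 12518 genes (2.74%) had a difference at least as high. Nog, which encodes the antagonist Noggin, was under the floor (68.2 and 74.5). The BMP receptors lay on both sides of 0. Bmpr1a, the type I receptor of the epithelium, was at 1476 and 1347. Of its 5 probe sets at or above the floor, 4 lay below 0 (mean log2 difference -0.07 ± 0.15, SD over 5 probe sets). Bmpr2, the type II receptor, was at 1425 and 1711, and its 3 probe sets all lay above 0 (0.33 ± 0.24, SD over 3 probe sets). The dimmest of them (98.5 and 148, log2 difference 0.59) was above the floor in KO only, so it had to lie above 0. Bmpr1b was under the floor. Of the symbols that are no ligands, Bmp1 was at 359 and 368. Bmp2k was at 522 and 385, with all 3 probe sets below 0, from -0.44 to -0.18. That at -0.18 (141 and 124) reached the floor in WT only, which fixed its direction.

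The stromal and regional markers gave the following values beside these members. All 15 smooth muscle markers lay above 0 on the probe sets used, with a median log2 difference of 0.40 (-0.10 with the spike-ins as reference). Their summed intensity was 72956 in WT and 97269 in KO. Myocd (108 and 155) was above the floor in KO only, which fixed its direction. Hhip was at 0.02, and its second probe set at or above the floor gave -0.26. Desmin (Des) was at 4206 and 6581, while its second probe set, near the floor, was at 131 and 120.2. The 21 markers of subepithelial fibroblasts and telocytes had a median of 0.07 (-0.01 with both arrays set to the same median) and summed intensities of 40139 and 41859, and Foxl1 and Gli1, which define the telocytes, were under the floor in both pools. Of 9 colon markers at or above the floor, 4 were called higher (Atp12a, Aqp8, Hoxb13 and Hoxd13), where 0.567% of all genes were. Differences above 0 were found in 8 of the 9, with a median of 0.98 (0.49 with the spike-ins as reference and 0.54 without a floor). Hoxd13 (42.4 and 255) was above the floor in KO only, which fixed its direction. Its second probe set, under the floor, ran the other way (70.5 and 57.0, -0.31). The colonic surface transporter Slc26a3 was at 4525 and 8844. Of the members described above as stromal, Grem1, Rspo2, Rspo3, Rspo4, Sfrp1 and Bmp4 had differences above 0 (below 0 with the spike-ins as reference, except Grem1), Wnt5a had one of -0.20, and Bmp5 had probe sets on both sides of 0. The part of muscle content or of intestinal region in these values was not tested.

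**Figure D4:**
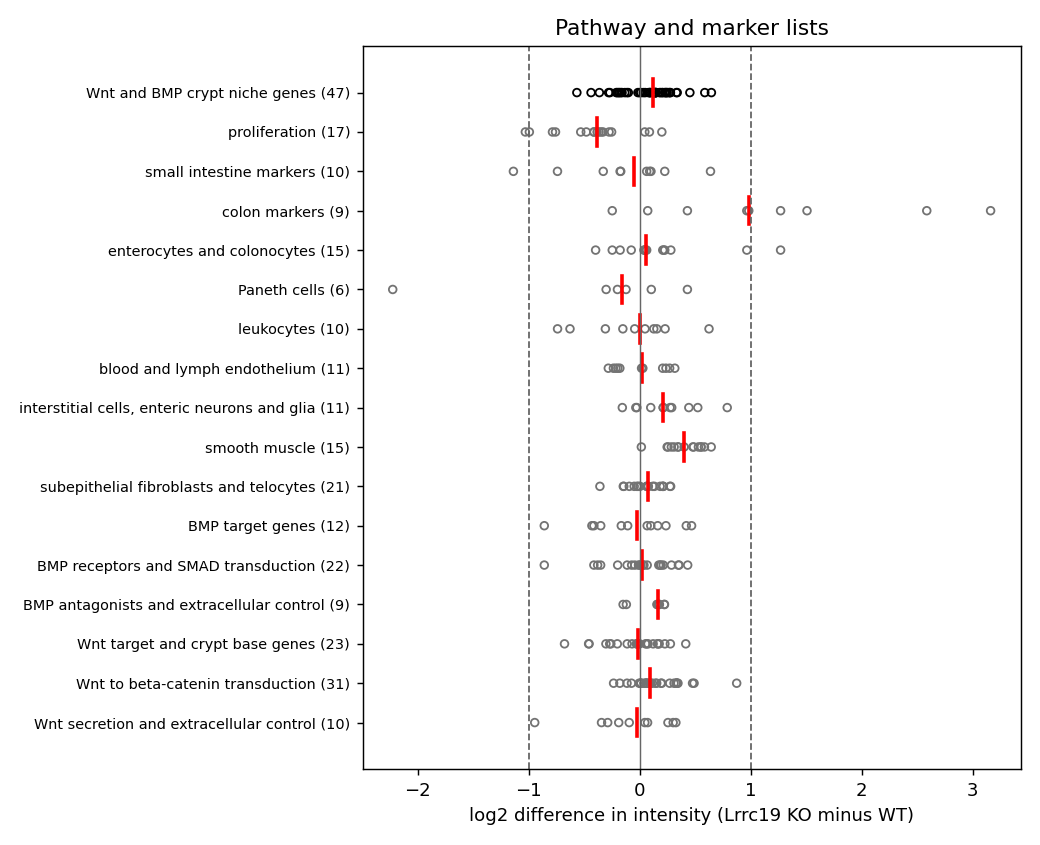
Log2 difference (Lrrc19 KO minus WT) of each gene at or above the floor (circles) and the median (red) for 16 pathway and marker lists and for the 47 crypt niche genes, with the number of genes in parentheses. Dashed lines mark 2-fold. The crypt niche genes (median 0.12) span from -0.56 to 0.65, smooth muscle markers lie to the right (median 0.40, but -0.10 with the spike-ins as reference) and proliferation markers mostly to the left (median -0.38).

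The rest of both pathways was read from 6 lists, and none of their genes at or above the floor was called higher or lower. Other probe sets of Tcf7l1 (216 in WT and 467 in KO, 1.11) and Csnk1a1 (139 and 311, 1.16) did pass 2-fold. Those used for the 2 genes gave 0.19 and 0.06. Of 10 genes for the secretion and extracellular control of Wnt ligands, 5 lay above 0 and 5 below (median -0.02, and 0.08 with the control genes as reference). Wls, the carrier without which Wnt ligands are not secreted, was at 749 in WT and 590.5 in KO (log2 difference -0.34), and its other probe sets at or above the floor gave -0.55 and -0.36. Tspan12, a Frizzled 4 coreceptor for norrin, was at 1076 and 559 (-0.94) on its only probe set, the largest difference of this list. Porcn, which attaches the lipid to Wnt ligands, was at 319 and 336.

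The transducers of the β-catenin branch were slightly above 0 for the most part. Of 31 genes, 26 lay above 0 and 5 below, with a median of 0.10 (0.02 with both arrays set to the same median, and -0.40 with the spike-ins as reference). Ctnnb1, which encodes β-catenin, gave 9183 for WT and 10223 for KO (0.15), and its other probe sets at or above the floor gave 0.03 and -0.29. The scaffold protein gene Dvl1 was at 591 and 1085 (0.88), and 0.52 on its second probe set. The nuclear factors Tcf7l2 (821 and 1143, 0.48) and Tle4 (983 and 1381, 0.49) followed. Of 23 further targets and crypt base genes, 10 lay above 0 and 13 below (median -0.01, and 0.08 with the control genes as reference). Myc was at 224 and 233 and Smoc2, a stem cell transcript like Lgr5, at 173 and 165. Sox9 was at 355 and 352 on the probe set used and at 393 and 288 on another (-0.45). The largest differences in this list were those of Hopx (2149 and 1346, -0.68) and Cdx1, an intestinal homeobox gene (1282 and 933, -0.46). Stem cell marker Olfm4 did not reach the floor in either pool (48.5 and 93.9).

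The BMP branch was read in the same way. Of 9 further antagonists and extracellular regulators, 7 lay above 0 (median 0.17, and -0.33 with the spike-ins as reference), with the largest difference in Fstl1 (1514 in WT and 1769 in KO, 0.23). Of 22 receptors and SMAD transducers, 13 lay above 0 and 9 below (median 0.02, and -0.06 with both arrays set to the same median). Smad4, the common partner of the SMADs, was at 1938 and 2367 on the probe set used (0.29), and its other probe sets gave -0.03 and 0.09. Of 12 BMP target genes, 6 lay above 0 and 6 below (median -0.02, and 0.08 with the control genes as reference). Id1, the most direct readout of BMP signaling, was at 2747 and 2551 (-0.11), Id2 at 683 and 536 (-0.35) and Id3 at 1692 and 1257 (-0.43). Bambi, a decoy receptor that BMP itself induces, was at 242 and 133 (-0.86), close to the floor in KO. Tbx3 and Id4 had no settled direction. Tbx3 was at 358 and 496 on the probe set used (0.47), with -0.48 and -0.25 on the others at or above the floor. Id4 was at 487 and 652 on the probe set used (0.42), with -0.48 and -0.29 on the others at or above the floor. The remaining targets above 0 were Atoh8 (0.24), Hey1 (0.16), Gata2 (0.10) and Smad7 (0.07).

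**Figure D5:**
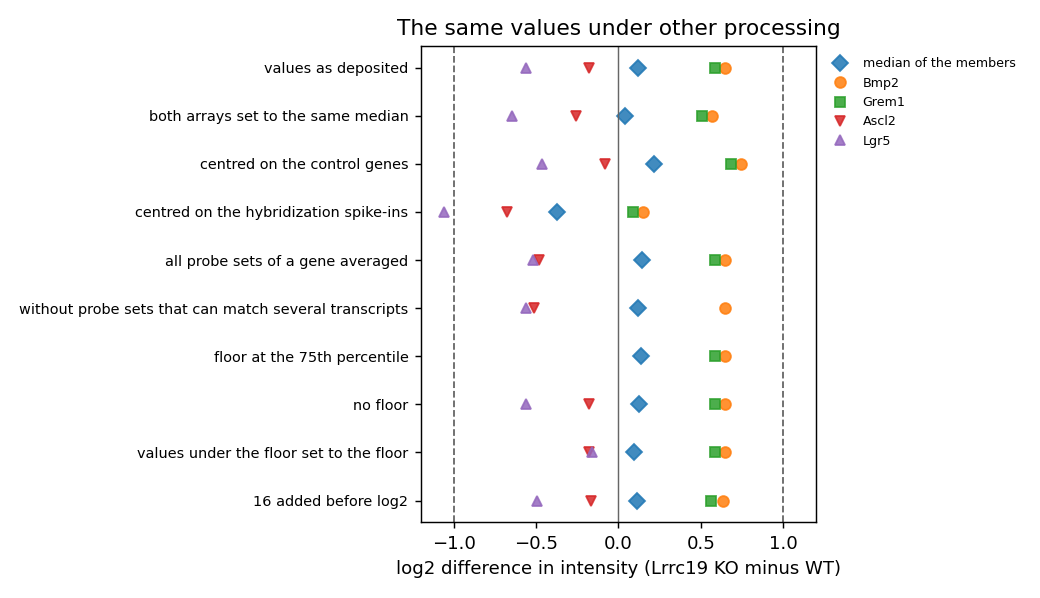
Median log2 difference of the 47 genes (diamonds) and log2 differences of Bmp2, Grem1, Ascl2 and Lgr5 (Lrrc19 KO minus WT) with the values as deposited and under 9 other settings. Dashed lines mark 2-fold, and a gene without a point in a row was not measured under that setting. Lgr5 passes 2-fold only with the spike-ins as reference (-1.06), and Bmp2 and Grem1 stay above 0 in every row where they have a point.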

How the data were processed

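Each genotype was measured on 1 Affymetrix mouse array with pooled RNA. The intensity values deposited by the authors are linear, from 1 to 25842. The submitters' processing notes name RMA, without a version, but the array medians were unequal (124 in WT and 131 in KO), and no source used here states how the arrays were scaled. A scaling error would shift every log2 difference by a constant.

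The lowest value allowed was 1, and differences were taken on the log2 scale (Python 3.11.15, pandas 2.3.3). Of 45101 probe sets, 64 were controls, 34945 carried 1 gene symbol in the platform annotation, 932 several, and 9160 none. Symbols were updated through gene identifiers with RefSeq (GRCm38.p6), which held 34741 of them. The floor was the 50th percentile of the values that were not controls. A log2 difference of at least 1 in size counted as a call. The gene step was tested on simulated data. The text may name every member at or above the floor, up to 4 genes with the largest difference of each list, and defining markers. Ctnnb1, Porcn, Myc, Sox9, Smoc2, Olfm4, Id1, Id2, Smad4, Slc26a3, Foxl1 and Gli1 were added for their roles after their values were seen. Atoh8, Hey1, Gata2 and Smad7 were added, also after their values were seen, to name every BMP target above 0. Myocd, Hhip, Tcf7l1 and Csnk1a1 were added in the same way, to give the limits of the counts of their lists. Of 317 list entries, 296 were on the array. The members and lists were chosen with earlier results of these data known. With 1 array per genotype, no test applies. Alternatives covered scaling, probe sets, floor and pseudocount (16).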

Additional observations from a re-analysis of the deposited data

How the results depend on the processing

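The counts of 0 genes called higher and 0 called lower held in 8 of 9 alternative settings. So did the sign of the median of the 47 genes (from 0.04 to 0.22). Several settings could not have changed the counts and are no check of them. Adding 16 or setting values to the floor only shrinks differences. The higher floor and the removal of probe sets that can match several transcripts only drew on the 73 probe sets described above, none past 2-fold. With the spike-ins as reference, which shifts every log2 difference by -0.50, 1 gene was called lower (Lgr5, -1.06) and the median was -0.38. With the threshold of 1.5-fold, added after the values were seen, 2 genes were past it toward KO and 0 toward WT. With both arrays set to the same median (a shift of -0.08) 28 of 47 differences lay above 0, and with the 9 control genes as reference (a shift of 0.10) 33 did. The signs of 40 of the 47 genes, 28 above 0 and 12 below, held in every setting that measured them other than the spike-in one. No sign could change without a floor, with the higher floor, with 16 added or with values set to the floor. Only the scaling and probe set settings were a check of the signs. The 40 also include genes such as Bmp5 and Fzd3, whose own probe sets lie on both sides of 0. Without probe sets that can match several transcripts, 45 genes were measured, Grem1 dropped out, and Ascl2 was at -0.51. With all probe sets averaged, 34 genes reached the floor. With the floor at the 75th percentile (354), 20 genes reached it and Lgr5, Ascl2 and Rspo3 did not. With all probe sets averaged the Frizzled median was 0.12, and the BMP receptor median was -0.01 with both arrays set to the same median. No paired analysis was possible because each genotype had 1 pool. Depth cannot be given for arrays. Genes near the floor are the least reliable.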
